A study of Mus musculus with 20 samples.

Results

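The fusion of osteoclast precursors was followed through 8 genes, out of 21887 protein-coding genes in the RefSeq annotation of GRCm38.p6. They were chosen by name from what is known of macrophage and osteoclast fusion and not by any measured value. Earlier results of these data were, however, known at that time. They are Dcstamp, Ocstamp, Atp6v0d2, Cd9, Cd81, Cd44, Cd47 and Sirpa, and 8 of 8 had enough peak length around them to be tested, as did 12186 genes in all. Acetylation of lysine 27 on histone H3 (H3K27ac) marks promoters and enhancers in use. It was measured by ChIP-seq in RAW264.7, a mouse macrophage line that becomes osteoclast-like when given the cytokine RANKL. The cells were untreated (3 libraries), given RANKL at 50 ng/ml for 4 h (3 libraries), or given RANKL with 500 nM of I-BET for 4 h (3 libraries). I-BET alone was also given, at 500 nM for 4 h (1 library, numbered 3). I-BET blocks the bromodomains by which BET proteins bind acetylated histones. All libraries come from 1 cell line, and the labels do not say whether replicates were separate cultures, so a p-value here covers only how far these libraries vary, which may be technical. A longer peak can reflect more cells carrying the mark or more of it in each cell. It can also differ with the depth of a library and the calling of its peaks, and the data do not tell these apart.

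Osteoclasts become multinucleate by fusion of mononuclear precursors, and RANKL starts that programme over days. Dcstamp and Ocstamp are membrane proteins without which precursors stay mononuclear. Atp6v0d2, a subunit of the vacuolar proton pump, also takes part in fusion. The tetraspanins Cd9 and Cd81 organise the membrane around fusing partners, Cd44 binds hyaluronan and mediates adhesion, and Cd47 on a cell binds Sirpa on its neighbour.

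The measurement is the length in kb that a library's deposited peaks cover in a window made of the gene and 25 kb on either side. The libraries were not alike in extent. Lists held 13368 to 17794 peaks over 16.1 to 25.9 Mb, apart from the replicate 2 libraries, with 9893 peaks untreated, 141905 with RANKL and 6041 with RANKL+I-BET. RANKL replicate 2 had gene-end peaks at 10 of 10 lymphocyte markers, at 5 of 10 for fibroblasts or osteoblasts and at 8 of 10 for organs that the culture lacks. The other lists had peaks at no more than 1 of 10 lymphocyte markers and at 0 of the other 20, while macrophage markers had them at 8 to 10 of 10 (6 of 10 in RANKL+I-BET replicate 2). By plan, the replicate 2 libraries are shown apart. The group comparisons use replicates 1 and 3 (n = 2 per group). At these markers untreated replicate 2 was within the range of the lists kept. The lists give no counts, so the depth behind each value is unknown.

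Promoter sequences were at hand for Cd9, Cd81, Cd44 and Cd47, from RefSeq on GRCm38.p6. They are shown because the 4 genes differed in whether a peak lay over the start site. Each line gives the 250 bases before the start site, 5′ to 3′ on the gene's strand. For Cd47 the source held 2 such windows, and the other was neither shown nor scored. Capitals mark any match to an AP-1 word (TGAGTCA or TGACTCA), a PU.1 word (GAGGAAG or CTTCCTC) or a GC box (GGGCGG or CCGCCC). Both strands were searched, and no word holds another.
Cd9 (chr6:125494761-125495010, minus strand): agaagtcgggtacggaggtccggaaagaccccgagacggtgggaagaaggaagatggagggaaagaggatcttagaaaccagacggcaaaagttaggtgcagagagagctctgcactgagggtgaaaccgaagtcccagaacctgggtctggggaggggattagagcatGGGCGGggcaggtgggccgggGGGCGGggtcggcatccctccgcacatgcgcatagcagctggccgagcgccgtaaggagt
Cd81 (chr7:143052500-143052749, plus strand): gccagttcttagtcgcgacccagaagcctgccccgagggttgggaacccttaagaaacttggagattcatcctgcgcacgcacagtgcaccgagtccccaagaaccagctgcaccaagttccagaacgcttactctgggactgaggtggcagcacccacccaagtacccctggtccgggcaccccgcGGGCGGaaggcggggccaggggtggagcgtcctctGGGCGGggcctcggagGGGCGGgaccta
Cd44 (chr2:102901666-102901915, minus strand): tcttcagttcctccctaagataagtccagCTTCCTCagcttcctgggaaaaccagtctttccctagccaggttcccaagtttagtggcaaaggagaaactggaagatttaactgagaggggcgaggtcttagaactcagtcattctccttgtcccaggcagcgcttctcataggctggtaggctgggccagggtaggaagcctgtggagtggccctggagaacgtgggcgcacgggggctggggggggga
Cd47 (chr16:49855404-49855653, plus strand): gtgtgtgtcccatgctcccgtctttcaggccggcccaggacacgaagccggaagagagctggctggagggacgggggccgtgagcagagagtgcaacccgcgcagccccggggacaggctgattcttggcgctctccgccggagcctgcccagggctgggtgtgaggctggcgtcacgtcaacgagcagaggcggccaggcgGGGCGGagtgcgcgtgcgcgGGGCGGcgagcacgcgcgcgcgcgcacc

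The Cd9, Cd81 and Cd47 windows held 2, 3 and 2 GC boxes, and the Cd44 window held 1 PU.1 word and no GC box. An AP-1 word was in none of the 4. Of all 32851 promoter windows of this length, 32.7% held a GC box, 10.6% a PU.1 word and 4.46% an AP-1 word. The Cd47 promoter had 30 CpG dinucleotides, more than 94.1% of windows, Cd9 and Cd81 had 16 each, and Cd44 had 5. Over the start site itself, in a stretch of 300 bases that runs 50 bases into the gene, the 4 genes parted in another way. Peaks covered all 300 bases at Cd47 in 8 of 10 lists, with 109 bases in RANKL+I-BET replicate 2 and 0 in untreated replicate 2. The start site scored for Cd47 lies inside its annotated span (chr16:49851328-49912503), and no list had a peak over the lower-numbered end of that span. At Cd44 they covered 292 or 300 bases in 7 lists and 0 in untreated replicate 3, RANKL replicate 3 and RANKL+I-BET replicate 2, where the nearest peak ended 208, 190 and 258 bases from the start site. Cd9 peaks stopped 21 to 92 bases from the start site in 8 lists, so that at most 29 of the 300 bases were covered. At Cd81 no peak came nearer than 5142 bases in 9 lists. RANKL replicate 2 covered all 300 bases at each of the 4 genes. Across genes, 11.7% to 28.4% of promoters had a peak in the other lists (6.25% in RANKL+I-BET replicate 2), against 54.8% in RANKL replicate 2.

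Dcstamp (chr15:39745930-39760938) had little peak length in untreated replicates 1 and 2 and more in untreated replicate 3. In replicate 1, peaks covered 0.854 kb of the window before treatment, 2.54 kb after RANKL and 1.32 kb after RANKL+I-BET. The same lengths were 4.33, 6.63 and 5.89 kb in replicate 3, and 4.32 kb for I-BET alone. With the whole window counted, RANKL was highest within each replicate number, but untreated replicate 3 lay above RANKL replicate 1, so the groups overlapped. The means were 2.59 ± 2.46 kb untreated, 4.59 ± 2.89 kb for RANKL and 3.61 ± 3.23 kb for both agents (SD, n = 2 each). The replicate 2 lists gave 0.714 kb untreated, 17.4 kb for RANKL and 0 kb for both agents.

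Peaks were compared in place through consensus regions, stretches covered in at least 2 of the 10 lists, and distances are given from the lower-numbered end of the gene because the annotation used gives no strand for Dcstamp, Ocstamp, Atp6v0d2 and Sirpa. The Dcstamp window held 6 regions. The most widely shared lay outside the gene, from -9.03 to -7.65 kb, and was held by 9 lists. The region across the end of the gene itself (-0.52 to 0.86 kb) was absent from untreated replicates 1 and 2 and present in untreated replicate 3, in the 3 RANKL lists, in RANKL+I-BET replicates 1 and 3 and with I-BET alone. The remaining regions on the far side, between 24.5 and 33.0 kb, and the peaks of single lists beyond them lay inside the neighbouring gene Dpys, which encodes a pyrimidine-degrading enzyme. Peaks there count towards Dcstamp in the window although they lie in another gene. Fold enrichment, the authors' value for each peak, was compared in the widely shared region. It was 2.57 and 3.25 in untreated replicates 1 and 3, 3.01 and 2.28 with RANKL, 2.76 and 3.08 with both agents and 2.74 with I-BET alone, which showed no common direction.

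Ocstamp (chr2:165395450-165400394), the partner of Dcstamp, had the lowest untreated mean of the 8 genes. Replicate 1 showed 0.250 kb untreated, 1.78 kb after RANKL and 1.48 kb after both agents. Replicate 3 showed 1.83, 4.73 and 2.67 kb in that order, and I-BET alone showed 3.40 kb. Within each number RANKL was highest and RANKL+I-BET lay between, although untreated replicate 3, at 1.83 kb, was above RANKL replicate 1. The means were 1.04 ± 1.12 kb untreated, 3.25 ± 2.09 kb for RANKL and 2.07 ± 0.839 kb for both agents (SD, n = 2 each). In replicate 2 the values were 0.299, 23.0 and 0 kb. The gene body carried no peak except in RANKL replicate 2. Both consensus regions lay past its higher-numbered end, at 5.67 to 6.69 kb and at 7.64 to 10.8 kb, and the second ran into the end of the neighbouring gene Slc13a3. This second region was a single short peak of 0.250 kb with a fold of 1.67 in untreated replicate 1. In untreated replicate 3 it was a peak of 1.60 kb with a fold of 4.15, higher than 96.6% of that list. In RANKL replicate 3 a continuous peak of 4.73 kb with a fold of 4.90, higher than 95.4% of that list, joined both regions.

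**Figure D1:**
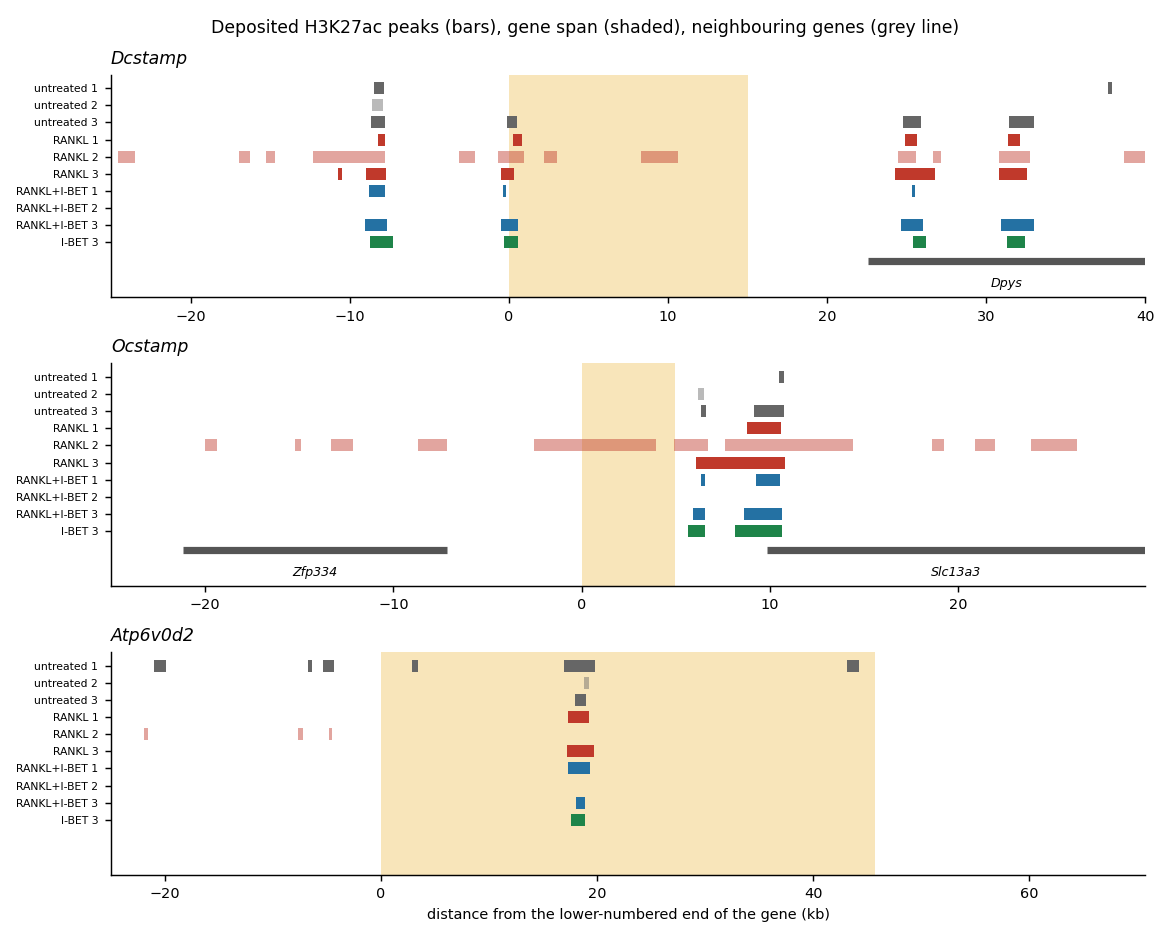
Positions of the deposited H3K27ac peaks around Dcstamp, Ocstamp and Atp6v0d2, in kb from the lower-numbered end of each gene, with 1 row per list (replicate 2 lists paler), the gene span shaded and neighbouring genes as grey lines. No list but RANKL replicate 2 has a peak inside Ocstamp, and the peak inside Atp6v0d2 recurs in 8 lists.

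Atp6v0d2 (chr4:19876838-19922566) went another way, through a single library. Untreated replicate 1 had 7.15 kb in 6 peaks, while RANKL replicate 1 had 1.95 kb and RANKL+I-BET replicate 1 had 2.10 kb, each in 1 peak. The lists numbered 3 had 1 peak each, of 0.963 kb untreated, 2.51 kb after RANKL, 0.840 kb after both agents and 1.34 kb after I-BET. The order of untreated and RANKL was thus opposite in the 2 replicate numbers. The means were 4.05 ± 4.37 kb untreated, 2.23 ± 0.397 kb for RANKL and 1.47 ± 0.888 kb for both agents (SD, n = 2 each). The recurrent peak lay inside the gene, at 17.2 to 19.7 kb, and was held by 8 lists. RANKL replicate 2 lacked it and had only 3 narrow peaks below the gene, together 1.06 kb, with fold values of 8.13 to 8.22. Untreated replicate 2 had 0.481 kb and RANKL+I-BET replicate 2 had 0 kb. The fold of the shared peak was highest with I-BET alone, at 4.39, above 96.6% of that list, and 2.15 to 3.23 in the other lists of replicates 1 and 3.

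**Figure D2:**
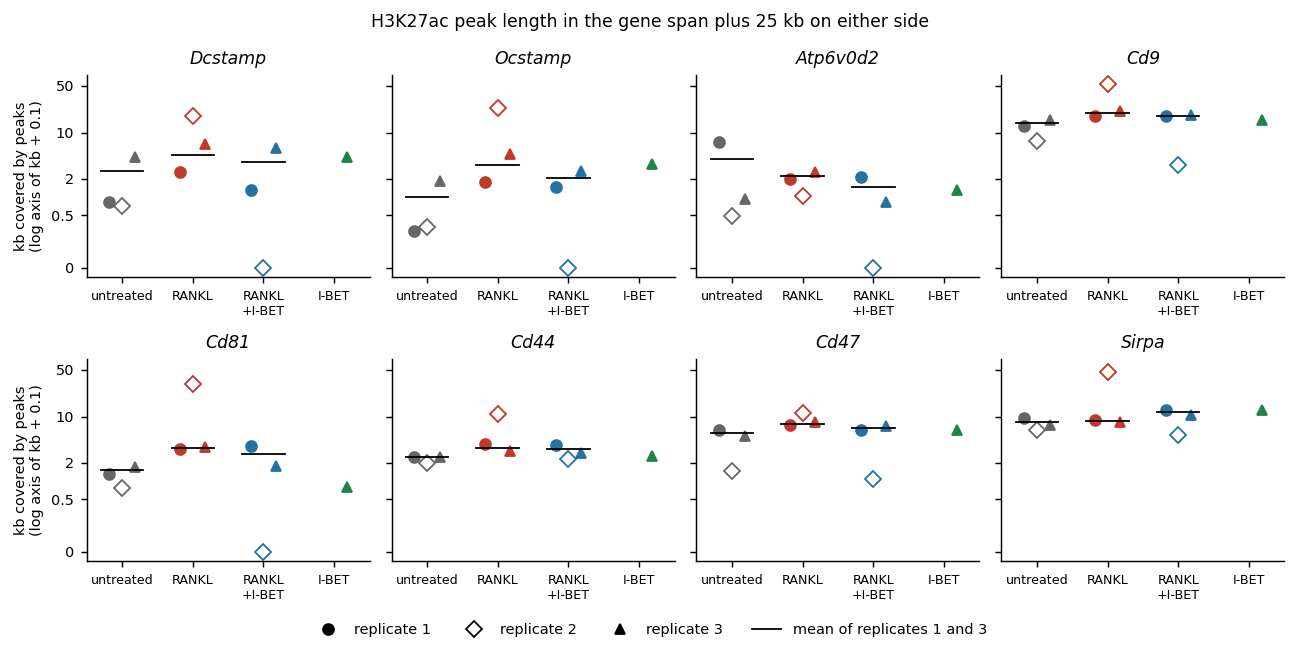
Peak length in kb (log axis of kb + 0.1) in the window of each of the 8 genes, by group. Circles, open diamonds and triangles are replicates 1, 2 and 3, and lines are means of replicates 1 and 3; RANKL replicate 2 is the highest point for 7 of the genes, and Atp6v0d2 is the exception.

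The tetraspanin Cd9 (chr6:125460266-125494760) had the longest coverage of the 8 genes in each list but RANKL+I-BET replicate 2. It measured 12.3 kb untreated, 17.8 kb after RANKL and 17.9 kb after both agents in replicate 1. It measured 15.5, 21.2 and 18.1 kb in replicate 3, and 15.6 kb under I-BET alone. Both RANKL lists lay above both untreated lists. The means were 13.9 ± 2.24 kb untreated, 19.5 ± 2.43 kb for RANKL and 17.99 ± 0.105 kb for both agents (SD, n = 2 each). The lists numbered 2 gave 7.39, 53.4 and 3.28 kb. Of its 7 regions, 6 were held by every list of replicates 1 and 3 and by I-BET alone. Of these, 3 lay inside the gene, at 7.44 to 14.0, 20.2 to 24.6 and 29.1 to 34.5 kb, and 3 lay below it, in a window with no other protein-coding gene. The seventh, a peak of 0.254 kb at 37.8 kb, was in RANKL replicate 2 and I-BET alone.

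Cd81 (chr7:143052750-143067930), the second tetraspanin, had few and short peaks. Peaks spanned 1.35 kb untreated, 3.29 kb after RANKL and 3.62 kb after both agents in replicate 1. They spanned 1.72, 3.44 and 1.80 kb in replicate 3, and 0.820 kb under I-BET alone. Both RANKL lists were above both untreated lists, at 3.36 ± 0.106 kb against 1.53 ± 0.260 kb, and RANKL+I-BET was spread over 2.71 ± 1.29 kb (SD, n = 2 each). Values in replicate 2 were 0.787 kb untreated, 30.2 kb for RANKL and 0 kb for both agents. A region that was longer with RANKL, at 15.9 to 17.6 kb, lay past the end of Cd81 and inside the adjacent gene Tssc4. Its peak measured 0.653 and 0.404 kb in untreated replicates 1 and 3 and 1.25 and 1.62 kb with RANKL. The other long RANKL peaks differed in place. RANKL replicate 1 had 1.625 kb at 5.14 to 6.77 kb inside Cd81. Untreated replicates 1 and 3 had 0.697 and 0.811 kb there, and RANKL replicate 3 had no peak. RANKL replicate 3 instead had 1.31 kb at -14.7 to -13.4 kb, with a fold of 1.30, above 0.301% of its list. A peak near 12 kb inside Cd81 differed in height. Its fold was 6.79 and 5.25 in RANKL+I-BET replicates 1 and 3 and 5.33 with I-BET alone, above 96.2%, 99.0% and 99.1% of those lists. It was 2.06 and 2.10 in RANKL replicates 1 and 3, above 4.51% and 23.5% of theirs, and 2.24 in untreated replicate 3, above 36.4%. Untreated replicate 1 had no peak there. In the lists numbered 2 the picture was different. The fold was 3.07 untreated, above 88.0% of that list, and 1.73 with RANKL, above 32.5%, and RANKL+I-BET had no peak. After these values had been seen, regions were ranked by the percentile of their fold within each list, as a description with no test. A region was ranked only if all 3 lists with I-BET held it (RANKL+I-BET replicates 1 and 3 and I-BET alone) and at least 3 of the 4 lists of replicates 1 and 3 without it, which left 20 of the 31 regions at the 8 genes. Of these, this 1 and the start-site region of Cd44 ranked higher in the 3 lists with I-BET than in every one of those without it that held them. The same was so for 2.93% of the 10780 regions ranked in the genome, and the reverse for 0 of 20 against 3.47%. The Ocstamp region at 5.67 to 6.69 kb was not ranked, because untreated replicate 3 and RANKL replicate 3 were the only such lists without I-BET that held it. Its fold lay above 92.7% and 95.4% of the peaks in those lists and above 56.2%, 62.1% and 5.68% in the 3 lists with I-BET, that is lower in each. In the lists of replicates 1 and 3, the Cd81 peaks with I-BET ended at 12.5 to 12.6 kb and those without it at 12.3 to 12.4 kb. The peak of RANKL replicate 2 over this place ended at 14.1 kb.

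Cd44 (chr2:102811141-102901669), the hyaluronan receptor, had most of its coverage at its start in the lists of replicates 1 and 3. Over the whole window it was 2.43 kb untreated, 3.83 kb after RANKL and 3.73 kb after both agents in replicate 1. In replicate 3 it was 2.47, 3.0 and 2.78 kb, and I-BET alone had 2.58 kb. The untreated lists lay close together, at 2.45 ± 0.0297 kb, below the RANKL lists at 3.41 ± 0.590 kb and those with both agents at 3.25 ± 0.667 kb (SD, n = 2 each). Replicate 2 gave 1.97 kb untreated, 11.1 kb for RANKL and 2.27 kb for both agents. The region at the start of the gene, 87.7 to 91.0 kb from the lower-numbered end, was held by 10 of 10 lists. The 2 other regions, at 83.3 and 84.2 kb, were each held by 1 of RANKL replicates 1 and 3 together with RANKL replicate 2 and by no other list. Their peaks gave 0.677 kb of the total in RANKL replicate 1 and 0.605 kb in RANKL replicate 3, and the peaks at the start measured 3.16 and 2.39 kb there, against 2.43 and 2.47 kb untreated. In RANKL+I-BET replicate 1 a peak of 0.512 kb at 66.3 kb stood beside 3.21 kb at the start. The fold of the start-site region lay above 55.6%, 61.3% and 92.8% of the peaks in RANKL+I-BET replicates 1 and 3 and I-BET alone, and above 18.2% to 54.2% in the untreated and RANKL lists of the same numbers. In the lists numbered 2 it lay above 19.8% untreated, 83.9% with RANKL and 56.1% with both agents.

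The ligand Cd47 (chr16:49851328-49912503) and its receptor Sirpa (chr2:129591042-129632228) were both marked before treatment. Cd47 coverage in replicate 1 was 6.22 kb untreated, 7.47 kb after RANKL and 6.38 kb after both agents. Replicate 3 gave 5.20, 8.32 and 7.27 kb, and I-BET alone gave 6.30 kb. Both RANKL lists exceeded all 4 lists of the other groups. The means were 5.71 ± 0.718 kb untreated, 7.89 ± 0.602 kb for RANKL and 6.83 ± 0.631 kb for both agents (SD, n = 2 each). Lists numbered 2 had 1.49, 11.4 and 1.11 kb. Of its 3 regions, 3 were held by every list of replicates 1 and 3 and by I-BET alone. In the region with the start site, the untreated lists had a pair of separate peaks, the longer of 2.41 kb in replicate 1 and 1.74 kb in replicate 3. With RANKL a continuous peak of 4.99 and 4.98 kb stood in its place, and it was continuous too after both agents (4.54 and 4.28 kb) and after I-BET alone (4.65 kb).

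Sirpa was the only member longer with RANKL+I-BET than with RANKL in both replicates without overlap. Its coverage in replicate 1 was 9.43 kb untreated, 8.84 kb after RANKL and 12.5 kb after both agents. For replicate 3 these were 7.44, 8.33 and 10.6 kb, and I-BET alone had 12.5 kb. The untreated and RANKL lists overlapped, and all 3 lists with I-BET stood above them. The means were 8.44 ± 1.40 kb untreated, 8.59 ± 0.363 kb for RANKL and 11.6 ± 1.36 kb for both agents (SD, n = 2 each). The replicate 2 values were 6.32, 46.1 and 5.25 kb. Coverage was concentrated at the lower-numbered end of the gene, in regions at 0.24 to 8.11 kb and 8.79 to 13.1 kb that were held by 10 of 10 lists, as was the region at -5.41 to -4.06 kb. In that last region RANKL+I-BET replicate 1 reached a fold of 7.57, above 98.0% of its list, but replicate 3 had 2.01, above 13.5%.

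**Figure D3:**
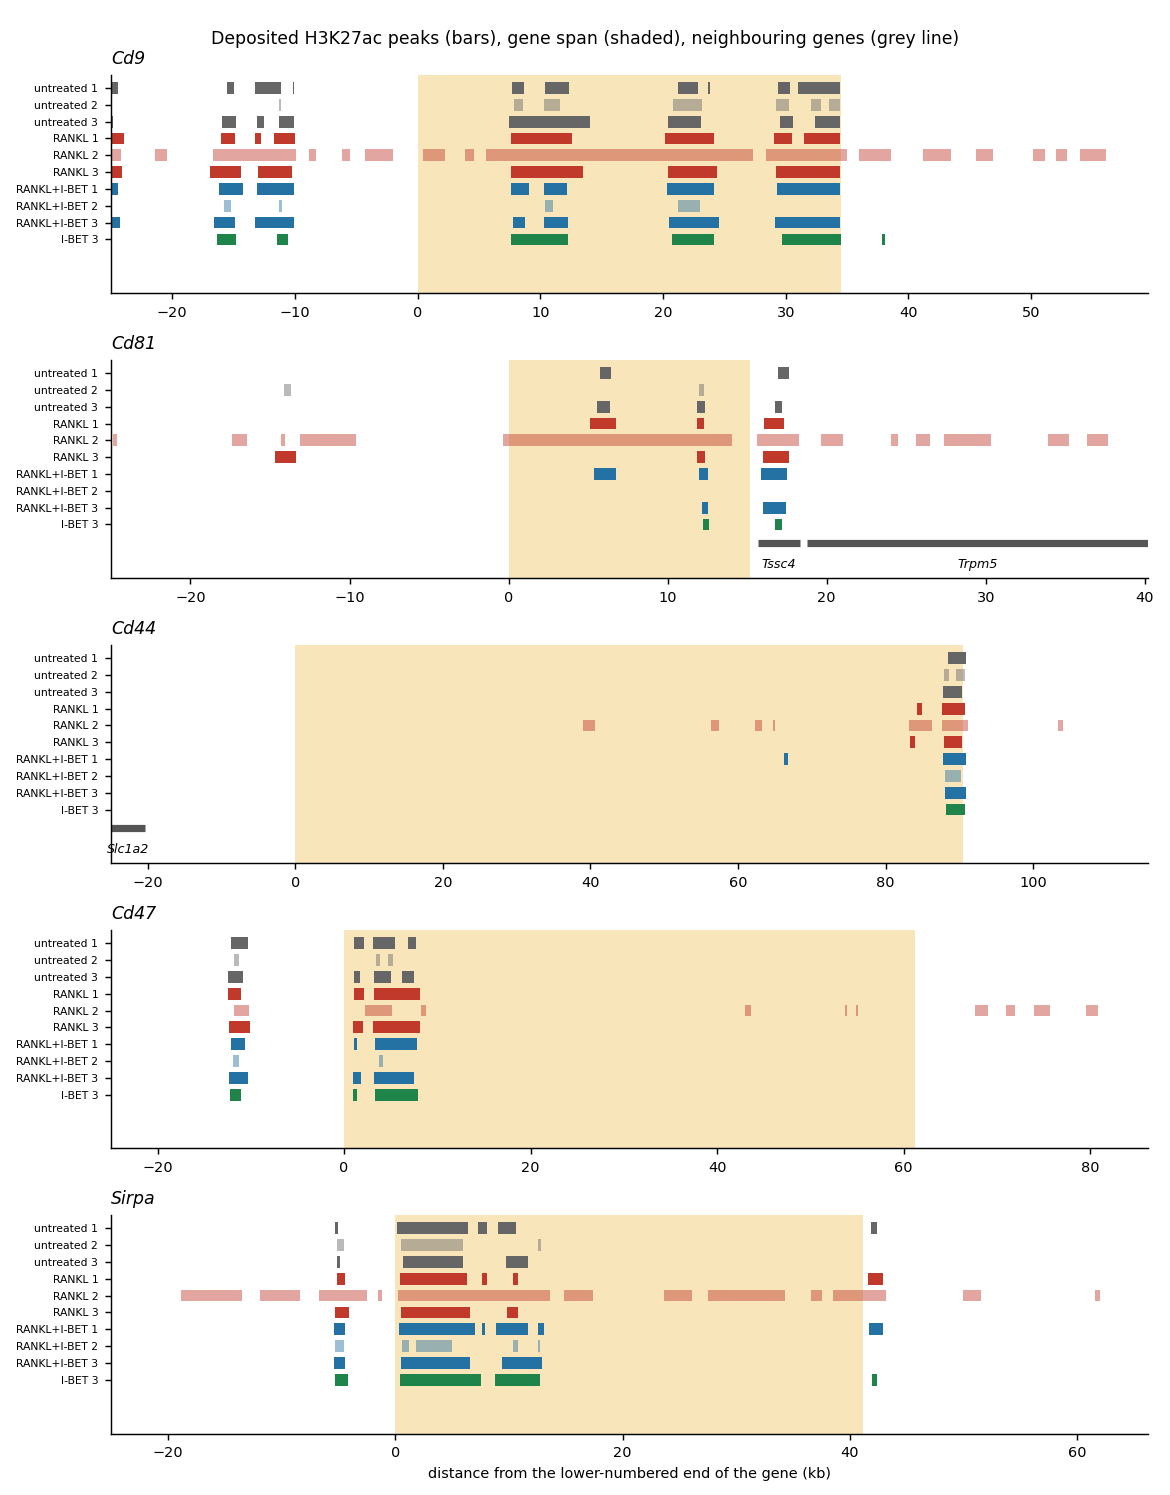
Positions of the deposited H3K27ac peaks around Cd9, Cd81, Cd44, Cd47 and Sirpa, in kb from the lower-numbered end of each gene, with 1 row per list (replicate 2 lists paler), gene spans shaded and neighbouring genes as grey lines. At Cd47 the pair of peaks near 3 to 8 kb in untreated replicates 1 and 3 is continuous in the other lists of replicates 1 and 3 and with I-BET alone.

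Over the 8 windows there were 31 consensus regions of 21013 in the genome. Of these 17, or 54.8%, were held by all 6 lists of replicates 1 and 3 and by I-BET alone, against 42.6% of all regions. Cd9 accounted for 6 of them, Cd47 and Sirpa for 3 each, and the other 5 genes for 1 each. The highest fold in each list for these genes ranged from 4.15 to 8.22, and it lay at Cd81 in 3 lists, Sirpa in 3, Ocstamp in 2, and Cd9 and Atp6v0d2 in 1 each.

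**Figure D4:**
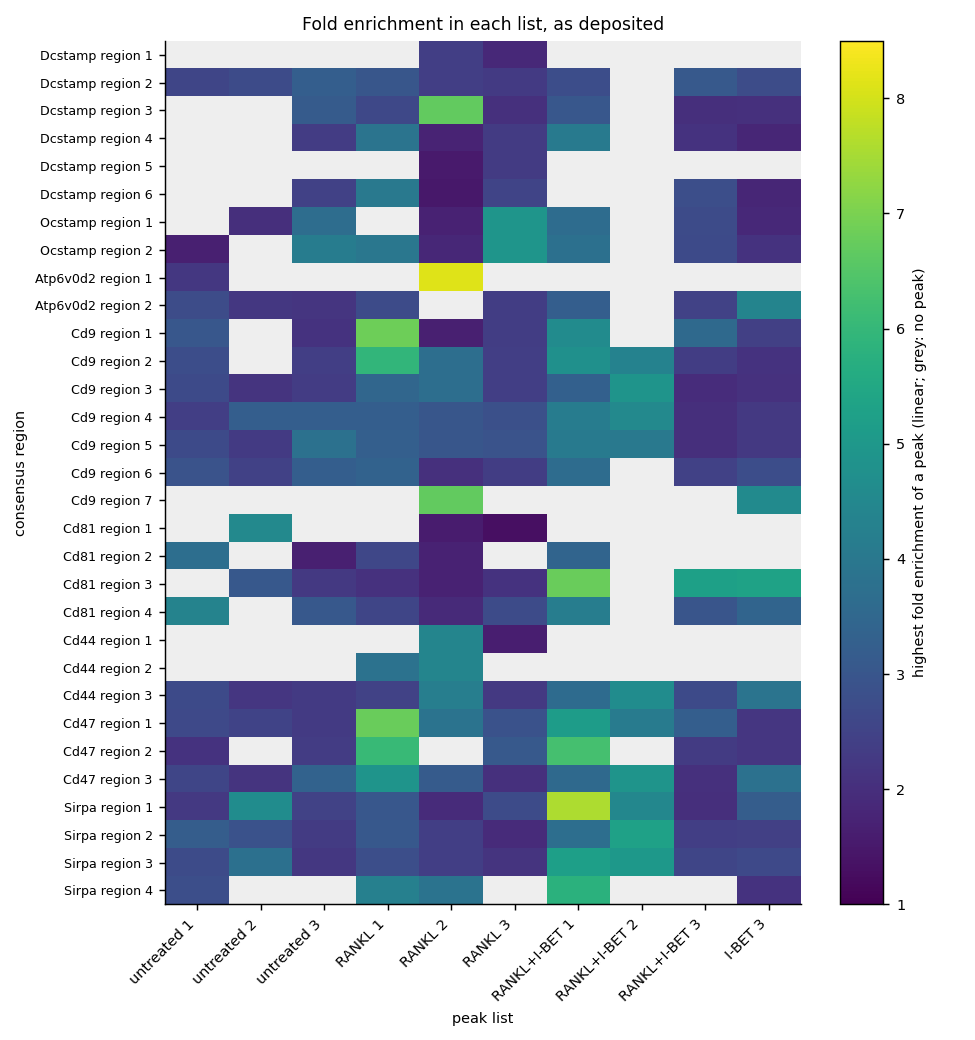
Highest fold enrichment of a deposited peak (linear colour scale, grey where the list has no peak) in each of the 31 consensus regions, numbered along each gene's window, by list. Cd81 region 3 is at 5.25 to 6.79 in RANKL+I-BET replicates 1 and 3 and I-BET alone, and at 2.06 to 2.24 in the RANKL lists of replicates 1 and 3 and untreated replicate 3.

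RANKL against untreated cells asks whether the fusion genes gain acetylation in the first hours of differentiation. As deposited, Cd9, Cd81, Cd44 and Cd47 were longer in both RANKL lists than in both untreated lists, which is 4 of 8 members. The same held for 53% of tested genes, and RANKL lists were longer over the genome (23.7 and 25.9 Mb against 16.1 and 19.5 Mb). Longest single peaks were longer without overlap for Ocstamp, Cd81 and Cd47, 3 of 8 members against 43.4% of tested genes. None of the 8 was shorter without overlap in covered length (1.28% of tested genes) or in its longest peak (2.17%). Once each list was centred on its median over all tested genes, Cd81 was the only member higher without overlap (background 13%) and Sirpa the only one lower (background 21.6%). The share of members separated in this way was near that of all genes.

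The fitted differences, on the scale of log2(bp + 500) after centring, were largest for Ocstamp at 0.92 (SE 0.55, 95% interval -0.36 to 2.19, limma adjusted p = 0.867). Its difference was 1.01 in replicate 1 and 0.83 in replicate 3. Atp6v0d2 followed at -0.76 (SE 0.77), with -2.23 in replicate 1 and 0.70 in replicate 3. Cd81 was at 0.47 (SE 0.28), Dcstamp at 0.40 (SE 0.74) and Cd9 at 0.01 (SE 0.15). Cd44 (-0.07, SE 0.25), Cd47 (-0.03, SE 0.24) and Sirpa (-0.43, SE 0.24) were below zero, and without centring these 3 turned positive, at 0.40, 0.44 and 0.03. With lists reduced to 1 covered length, Dcstamp, Cd9 and Cd81 turned negative, at -0.28, -0.16 and -0.68, and Cd47 turned positive, at 0.07. None of the 8 members passed an adjusted p of 0.05, and 0% of the 12186 tested genes did. At an unadjusted p under 0.05 limma listed 488 genes (4%) and none of the members, or 794 genes with the replicate number as a block, Ocstamp among them (unadjusted p = 0.00844 in limma, adjusted p = 0.718). The median difference was -0.01 over the members and -0.03 over all tested genes, and leaving out the centring shifted the latter by 0.46, to 0.44.

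No region in the 8 windows was gained, that is held by RANKL replicates 1 and 3 and by neither untreated list, and none was lost. Of all regions, 4.94% were gained and 0.19% lost. At Dcstamp and Cd81, untreated replicate 1 lacked regions that untreated replicate 3 and both RANKL lists held. Other regions at Dcstamp, Cd81 and Cd44 were in RANKL replicate 1 or 3, not both, and in neither untreated list. Without untreated replicate 3, taking the others as they stand, 4 regions were gained and 1 lost, without RANKL replicate 1 also 4 and 1, and without RANKL replicate 3 there was 1 gained and 0 lost.

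RANKL+I-BET against RANKL asks which of this acetylation depends on BET proteins. Sirpa was longer in both lists with I-BET, as was the case for 6.3% of tested genes as deposited and 21.4% after centring. Cd47 was shorter in both, 1 of 8 members against 29.7% of tested genes as deposited, but it overlapped after centring. The longest peaks of Cd81 and Cd47 were shorter in both lists, 2 of 8 members against 24.6%, and 0 of 8 were longer in both (8.52%). Dcstamp and Ocstamp overlapped between the groups.

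Sirpa had a log2 difference of 0.57 (SE 0.24, 95% interval 0.01 to 1.14), with 0.52 in replicate 1 and 0.63 in replicate 3. Its unadjusted p was 0.0460 in limma, where 212 genes (1.74%) were under 0.05, and its adjusted p was 1.00. With the replicate block, which listed 386 genes, the unadjusted p for Sirpa was 0.0172 in limma and the adjusted p 0.999. The other members were at -0.37 for Atp6v0d2 (SE 0.77), -0.29 for Ocstamp (SE 0.55), -0.28 for Dcstamp (SE 0.74), -0.16 for Cd81 (SE 0.28), -0.03 for Cd47 (SE 0.24), 0.06 for Cd9 (SE 0.15) and 0.11 for Cd44 (SE 0.25). Without centring Cd9 and Cd44 were at -0.11 and -0.06, while at 1 covered length Atp6v0d2, Cd81 and Cd9 turned to 0.77, 1.60 and -0.12. The count passing an adjusted p of 0.05 was 0 of 8 members and 0% of tested genes. The median was -0.09 over the members and 0.03 over all tested genes. No region was gained or lost in the windows, against 0.471% gained and 2.41% lost of all regions. Without RANKL replicate 1, 4 regions counted as lost, without RANKL replicate 3 there was 1 gained and 1 lost, and without RANKL+I-BET replicate 3, 1 was lost.

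RANKL+I-BET against untreated cells asks what remains different when both agents are present. As deposited, 5 of 8 members (Cd9, Cd81, Cd44, Cd47 and Sirpa) were longer in both treated lists, against 34.6% of tested genes. Longest peaks were longer without overlap for Cd81, Cd44 and Cd47, 3 of 8 against 32%. None was shorter in both lists in covered length (2.87% of tested genes) or in its longest peak (4.27%). After centring none of the members stood apart in either direction (background 13.1% higher and 16.2% lower). This comparison shares its libraries with the other 2, so its values are not independent of theirs.

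Atp6v0d2 had a log2 difference of -1.14 (SE 0.77, 95% interval -2.95 to 0.67, limma adjusted p = 0.945), of which -2.11 in replicate 1 and -0.16 in replicate 3. Ocstamp was at 0.63 (SE 0.55) and Cd81 at 0.31 (SE 0.28). Sirpa (0.14), Dcstamp (0.12), Cd9 (0.07), Cd44 (0.04) and Cd47 (-0.05) lay within 1 SE of zero, and Cd47 turned to 0.24 without centring. At 1 covered length Dcstamp and Cd9 turned to -0.65 and -0.28. The count passing an adjusted p of 0.05 was 0 of 8 members and 0% of tested genes, and limma listed 451 genes (3.7%) at an unadjusted p under 0.05, or 730 with the replicate block. Ocstamp was among the 730 (unadjusted p = 0.0485 in limma, adjusted p = 0.802) and no other member was. The medians were 0.10 over the members and -0.01 over all tested genes. Of all regions 2.39% were gained and 0.447% lost, and none of the 31 was either. Without untreated replicate 3, 4 were gained and 1 lost, and without RANKL+I-BET replicate 1, 1 was lost.

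**Figure D5:**
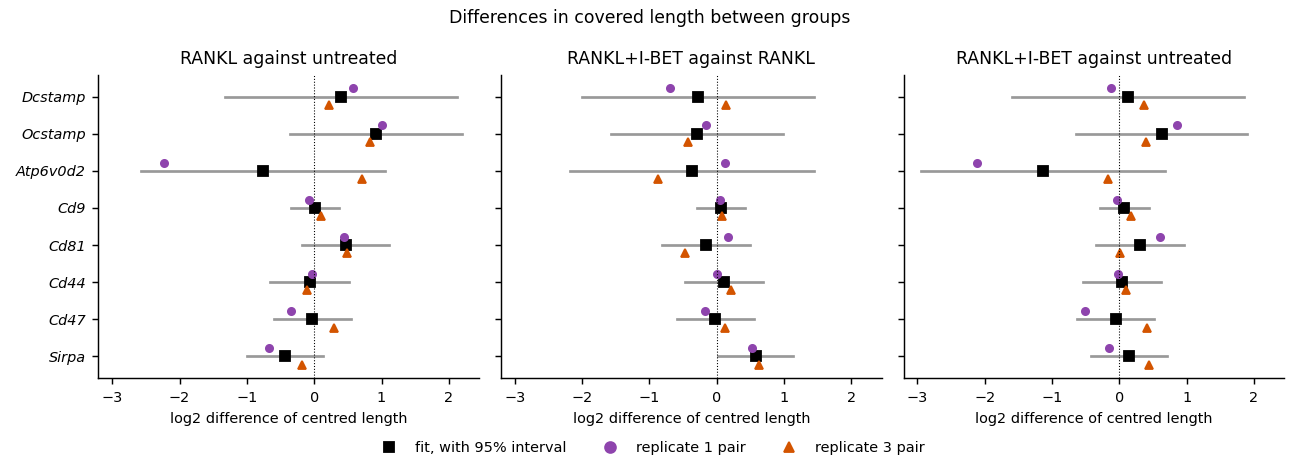
Differences in centred log2 covered length between groups for the 8 genes, with 95% intervals from limma (squares and bars) and the difference within replicate 1 (circles) and replicate 3 (triangles). The intervals are from the fit without the replicate block. Of these 24, only that of Sirpa for RANKL+I-BET against RANKL excludes zero before adjustment, at 0.01 to 1.14. With the block, those of Ocstamp against untreated also exclude zero, at 0.30 to 1.54 (RANKL) and 0.005 to 1.25 (RANKL+I-BET).

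I-BET alone, 1 library with no replicate check, was set beside untreated replicate 3. Ocstamp was higher by 0.79 and Sirpa by 0.76 on the centred log2 scale, while Cd81 was at -0.70. The others were 0.05 for Dcstamp, 0.06 for Cd9, 0.10 for Cd44, 0.31 for Cd47 and 0.38 for Atp6v0d2. None of the 8 reached a difference of 1 in either direction, which 2.24% of tested genes did upwards and 4.36% downwards. Against all 3 untreated lists as deposited, I-BET alone was longer than each of them at 5 of 8 members (Ocstamp, Cd9, Cd44, Cd47 and Sirpa) and at 34.9% of tested genes. RANKL replicate 2 was longer than each at 7 of 8 members and at 97.2% of tested genes.

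In 4 lists of other genes tied to fusion, 0 were called in any of the 3 comparisons (limma, smallest adjusted p 0.867 for RANKL against untreated). Of 10 other tetraspanins 8 were tested, and 2 were higher and 6 lower with RANKL than without, by a median of -0.20. Among them Cd151 coverage as deposited went from 7.64 to 10.5 kb in replicate 1 and from 9.37 to 10.5 kb in replicate 3. Tspan4 went from 5.36 to 8.28 kb and from 6.41 to 7.29 kb, and Cd53 from 2.74 to 4.15 kb and from 3.83 to 3.73 kb. After centring all 3 were lower with RANKL, at log2 differences of -0.17 for Cd151 (SE 0.17), -0.09 for Tspan4 (SE 0.19) and -0.22 for Cd53 (SE 0.21). Of 18 other surface genes of macrophage fusion 11 were tested, with 3 higher and 8 lower by a median of -0.08. The 3 with the most coverage were the metalloprotease Adam8, the galectin Lgals3 and the scavenger receptor Cd36, at log2 differences of -0.0029, -0.13 and 0.0049.

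Of 13 cytoskeletal genes of fusion 13 were tested, 8 higher and 5 lower with RANKL, by a median of 0.13. The focal adhesion gene Pxn, as deposited, went from 7.52 to 17.7 kb in replicate 1 and from 14.2 to 22.7 kb in replicate 3 (centred log2 difference 0.45, SE 0.24). Rac2, a small GTPase, and Wipf1, which binds the WASP protein, were at -0.12 and -0.08. Of 14 regulators of the fusion genes 13 were tested, 4 higher and 9 lower with RANKL by a median of -0.16, and with I-BET added 11 were higher and 2 lower than with RANKL alone by a median of 0.17. The transcription factors Mitf, Spi1 and Fos were at -0.43, -0.26 and -0.26 for RANKL against untreated and at 0.20, 0.17 and 0.10 for RANKL+I-BET against RANKL. The log2 differences and medians of these lists are of centred lengths, and the medians over all tested genes were -0.03 and 0.03. Of all tested genes, 46.5% were higher with RANKL than untreated, and 55.7% were higher with RANKL+I-BET than with RANKL. These comparisons share the RANKL libraries with opposite sign, so lower in the first and higher in the second are not independent.

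The genes whose centred length ran most like that of Dcstamp over 7 libraries (replicates 1 and 3 and I-BET alone) were Atp13a2 (Pearson r = 0.98), Mon2, Emp2, Extl3 and Col8a2, out of 12184 compared. For Ocstamp they were Slc2a1 (r = 0.99), Pla2g4a, Mrpl39, Cnot1 and Pfdn5. These are descriptions over libraries that share their treatments and their replicate numbers, and they carry no test.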

How the data were processed

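The submitters' processing notes name FastQC, Bowtie2 and MACS2 and the mouse build mm10 (GRCm38). Settings and the use of input are not given in the sources used here, and the 10 input libraries were not analysed here. The deposited lists have the layout of broad-peak tables. The authors' score, the deposited fold enrichment (a linear ratio) and the deposited p and q values on a −log10 scale belong to single peaks, so they describe or filter peaks within a list and are never compared by a test.

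Covered length in the gene plus 25 kb on either side was computed per list for 21887 genes. It was taken as log2(bp + 500), centred on each list's median, and fitted with limma 3.58.1 (R 4.3.3, trended prior) for genes with a mean of at least 500 bp over replicates 1 and 3 of the 3 groups (6 libraries). Adjustment was by Benjamini-Hochberg over 12186 genes. This main fit left out the replicate number, which entered only in the replicate block, an alternative. A list held a region if it covered at least 1 bp of it. The depth is unknown, so no counting interval can be given.

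The same replicate numbers recur in all groups, and the deviations of same-numbered libraries from their group means correlated over genes in all 9 pairs (r = 0.148 to 0.583), so the numbers were taken to pair the libraries. This pairing comes from the data, was left out of the main fit and is weak between numbers 1 and 3. Differently numbered libraries of these 2 numbers also correlated (r = 0.0528 to 0.384), and RANKL and RANKL+I-BET replicate 1 correlated more with untreated replicate 3 (0.211 and 0.284) than with untreated replicate 1 (0.148 and 0.218). The members, lists, tests and the alternatives were chosen with earlier results of these data known. All 8 members are named. Of each other list the text names any gene called and the 3 with the longest mean coverage, and for Dcstamp and Ocstamp the 5 genes most like them. Alternatives were all 9 libraries, 1 covered length, no centring, a pseudocount of 100 bp, a flank of 10 kb, no filter, peaks with a −log10 q of 5 or more, regions covered to 50%, the replicate block and leaving out each library. The code was tested on simulated data.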

Additional observations from a re-analysis of the deposited data

Results flagged for a closer look

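Data outside the group comparisons, RANKL replicate 2 and I-BET alone, were set against the highest untreated library for each gene. RANKL replicate 2 lay above it for 7 of 8 genes, and for 97.2% of all tested genes. Its peaks covered 17.4 kb at Dcstamp (highest untreated 4.33 kb), 23.0 kb at Ocstamp (1.83 kb), 53.4 kb at Cd9 (15.5 kb) and 30.2 kb at Cd81 (1.72 kb). They covered 11.1 kb at Cd44 (2.47 kb), 11.4 kb at Cd47 (6.22 kb) and 46.1 kb at Sirpa (9.43 kb). This list covers 184.6 Mb of the genome against 7.79 to 19.5 Mb untreated and has peaks at 8 of 10 markers of organs that the culture lacks. Their part in these values was not tested.

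I-BET alone exceeded every untreated library at 5 of 8 genes, and at 34.9% of all tested genes. It had 3.40 kb at Ocstamp (highest untreated 1.83 kb) and 12.5 kb at Sirpa (9.43 kb). At Cd9 it had 15.6 kb (15.5 kb), at Cd44 2.58 kb (2.47 kb) and at Cd47 6.30 kb (6.22 kb), margins of at most 0.125 kb. It is 1 library and its list covers 19.6 Mb, so the differences have no replicate check.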

How the results depend on the processing

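limma called 0 genes in each comparison under every alternative run, and 0 of 204 member values under other settings passed the threshold, although 42 changed sign (with a library left out, 31 of 144). The members' 95% intervals had a median half-width of 0.62 log2 units. The cause of the sign changes was not tested. For RANKL against untreated, 1 covered length (16.1 Mb) gave -0.28 for Dcstamp, -0.16 for Cd9, -0.68 for Cd81 and 0.071 for Cd47. Without centring Cd44, Cd47 and Sirpa had 0.40, 0.44 and 0.033. Keeping peaks with a −log10 q of at least 5 gave Ocstamp -1.52, Cd9 -0.84, Cd81 -2.10 and Cd47 1.36. A flank of 10 kb gave Cd9 -0.011 and Cd47 0.14. Cd9 also had -0.061 with a pseudocount of 100 bp and -0.0011 with no filter on low values, and -0.41 with all 9 libraries.

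For RANKL+I-BET against RANKL, 1 covered length gave Atp6v0d2 0.77, Cd9 -0.12 and Cd81 1.60. Without centring Cd9 and Cd44 had -0.11 and -0.064. A flank of 10 kb gave Dcstamp 0.15, Cd9 -0.045 and Cd81 0.11. A −log10 q of at least 5 gave Cd9 -0.60 and Cd81 3.14, and all 9 libraries gave Atp6v0d2 0.87 and Cd47 0.68. For RANKL+I-BET against untreated, all 9 libraries gave Dcstamp -0.018 and Cd47 0.19, and 1 covered length gave Dcstamp -0.65 and Cd9 -0.28. A −log10 q of at least 5 gave Ocstamp -2.39 and Cd9 -1.44. A flank of 10 kb gave Cd9 -0.055 and Cd47 0.037, and Cd47 had 0.24 without centring. With a −log10 q of at least 5, Dcstamp, Atp6v0d2, Cd44 and Sirpa fell under the filter and gave no value.

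The replicate block changed no call, with 0 genes called in each comparison. With the block on all 9 libraries, an alternative chosen after seeing the data, 0 genes were called, and the members' differences were those of all 9 libraries above, with -0.41 for Cd9 in RANKL against untreated.

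Gained regions in the 8 windows numbered 2, 1 and 4 in the 3 comparisons when at least 50% of a region had to be covered, and 2, 2 and 3 at a −log10 q of at least 5. At 1 covered length 3 were lost for RANKL against untreated and 3 gained for RANKL+I-BET against RANKL. Leaving out a library, chosen after seeing the data, gave 0 to 4 gained and 0 to 1 lost for RANKL against untreated and for RANKL+I-BET against untreated, and 0 to 1 gained and 0 to 4 lost for RANKL+I-BET against RANKL.

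With each library left out in turn, the lone library left was assumed to vary like the others. RANKL against untreated ranged from -0.35 to 1.14 for Dcstamp, -2.13 to 0.60 for Atp6v0d2, -0.062 to 0.091 for Cd9, -0.27 to 0.14 for Cd44 and -0.32 to 0.26 for Cd47. RANKL+I-BET against RANKL ranged from -1.26 to 0.71 for Dcstamp, -0.84 to 0.26 for Ocstamp, -0.77 to 0.024 for Atp6v0d2, -0.025 to 0.15 for Cd9, -0.50 to 0.19 for Cd81, -0.091 to 0.31 for Cd44 and -0.19 to 0.15 for Cd47. RANKL+I-BET against untreated ranged from -0.86 to 1.11 for Dcstamp, -0.021 to 1.27 for Ocstamp, -2.50 to 0.23 for Atp6v0d2, -0.015 to 0.16 for Cd9, -0.030 to 0.65 for Cd81, -0.12 to 0.20 for Cd44, -0.34 to 0.24 for Cd47 and -0.19 to 0.48 for Sirpa. The difference of Sirpa between RANKL+I-BET and RANKL stayed between 0.49 and 0.66, and those of Ocstamp (0.27 to 1.56), Cd81 (0.42 to 0.50) and Sirpa (-0.77 to -0.10) for RANKL against untreated kept their sign.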
